A study of Drosophila melanogaster with 63 samples.

Results

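The genes described here are the fruit fly genes still known by a CG number, the serial number given when the genome was annotated, whose RNA ratio was lower at each later larval age. Members were chosen by 3 criteria on the deposited values. The symbol is a CG number, the log2 ratio to larvae of 40 h is lower at each of the 4 steps between 52, 64, 76, 88 and 100 h and at most -1 at 100 h, and it lies between -1 and 1 in all 7 adult groups. This gave 82 of 9212 measured genes, or 82 of the 3846 CG-numbered genes with a value in all 12 groups. Every member therefore is low at 100 h by choice, and the larval and adult values below are a description, with no test.

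RNA came from Drosophila melanogaster of the wild-type strain OregonR, all kept at 25 C, and was hybridised to spotted arrays that set a sample against its control in 2 dye channels, with both dye orientations in every group. In the larval part (25 arrays: 6, 5, 6, 4 and 4 from 52 to 100 h after egg laying), larvae raised on apple juice agar with yeast were compared with larvae of 40 h. In the adult part (38 arrays), flies taken from standard food were kept for 24 or 48 h on buffer alone (starved) or on buffer with 20% sucrose (sugar) and compared with flies of the same sex given yeast paste. Females were starved for 24 h (6 arrays) or 48 h (5) and kept on sugar for 24 h (5) or 48 h (6), and males were starved for 24 h (6) or kept on sugar for 24 h (6) or 48 h (4). The labels give no adult age, no number of animals per RNA and no dissected tissue, and do not say whether the arrays of a group came from separate cultures.

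All arrays of a group carry 1 merged value per clone, so each group is 1 measurement and no spread between arrays can be given. The difference between 2 clones of a gene serves as a technical yardstick. Over the 645 genes with exactly 2 clones, its median was 0.13, 0.15, 0.18, 0.21 and 0.30 from 52 to 100 h, and its 95th percentile at 100 h was 1.09. Of the 82 members, 77 lay further below 0 than that at 100 h. The rule already asked for -1 or lower there, so nothing is read from this count. The sign is likely sample over control, since Lsp2, a storage protein of late larvae, was at 8.26 at 100 h. All larval ages share the 40 h control, so an error in it would move all of them together. In RNA of larvae, fewer cells of a type and less RNA per cell cannot be told apart.

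A CG number says only that no other name had been adopted, so the set is not a pathway. The reference annotation nevertheless lists synonyms for some members, and these name factors of ribosome assembly and mitochondrial proteins. Ribosomes are assembled in the nucleolus, where the ribosomal RNA is transcribed, cut, modified and joined to proteins with the help of many assembly factors that do not stay in the finished particle. Mitochondria have ribosomes of their own, and need chaperones and assembly factors to build the complexes of the respiratory chain. Larval life is the growth period of the fly, and its last part is the third instar, when feeding ends and preparation for the pupa begins.

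Among CG-numbered genes, meeting the full rule was about as common as among genes with other symbols. It was met by 2.13% of the CG-numbered genes, by 2.45% of the others (130 genes) and by 2.31% of all. The adult criterion removed no CG-numbered gene, since the larval criteria alone also gave 82. Being lower at each of the 4 steps was found in 4.58% of all genes, and the larval criteria together in 2.33%. Of the 213 genes of any name that met the larval criteria, 99.5% lay between -1 and 1 in all adult groups, against 94.8% of all genes.

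The member median was at -0.21 at 52 h, -0.41 at 64 h, -0.68 at 76 h, -1.11 at 88 h and -1.48 at 100 h, while the median of all genes stayed between -0.03 and 0.02. At 100 h the members ranged from -3.26 to -1.03, which is 9.57-fold to 2.04-fold below larvae of 40 h. At or below -2 were 10 members, 29 lay between -2 and -1.5, and 43 lay above -1.5. The number of members at or below -1 was 1 at 52 h, 2 at 64 h, 21 at 76 h and 53 at 88 h. Over all genes the share at or below -1 was 1.8%, 0.185%, 2.81% and 4.23% at those ages and 6.77% at 100 h. The rule used these same ratios, so nothing is read from the difference.

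**Figure D1:**
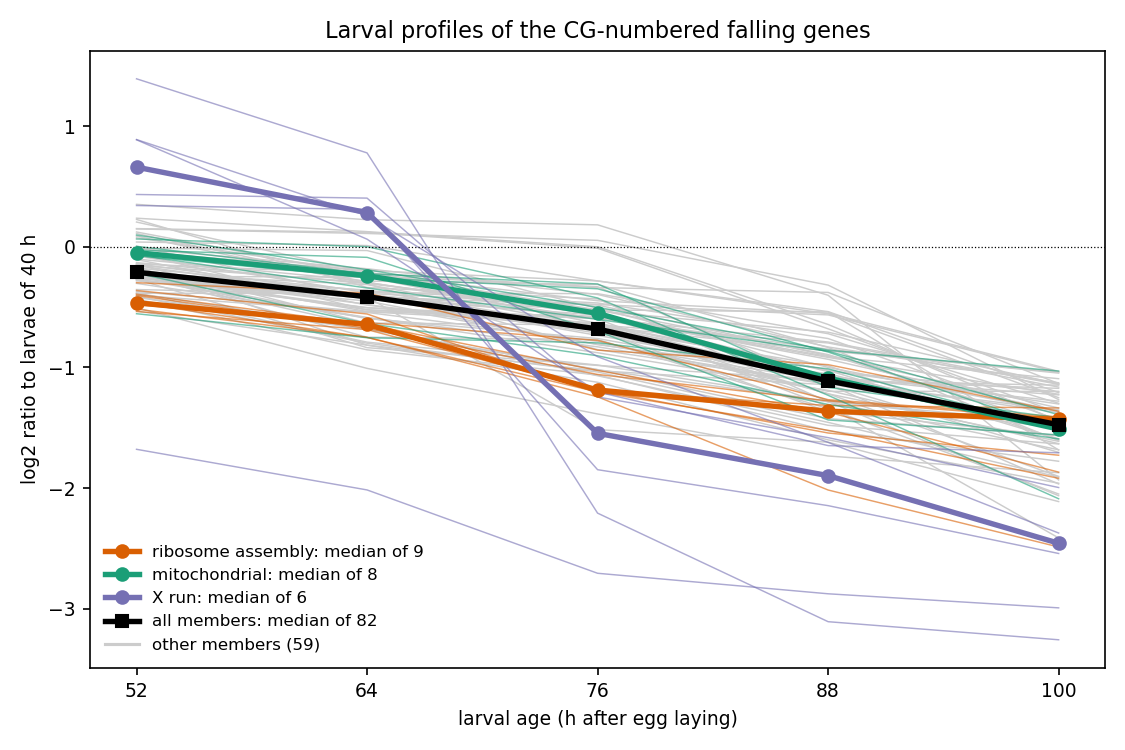
Log2 ratio to larvae of 40 h (vertical axis) against larval age in hours after egg laying, 1 thin line per member. Thick lines are medians: all 82 members in black, 9 members with synonyms of ribosome assembly in orange, 8 with mitochondrial synonyms in green and 6 neighbours on the X chromosome in violet. The violet median goes from 0.28 at 64 h to -1.55 at 76 h, and the orange median is the lower of the orange and green ones up to 88 h.

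The lowest members at 100 h include 3 neighbours on the X chromosome. CG14422 was at 1.39, 0.78, -2.21, -3.11 and -3.26 from 52 to 100 h, the lowest of the set at the end. CG14421 was low from the start, at -1.68, -2.02, -2.71, -2.88 and -2.99. CG14424 was at 0.34, 0.31, -1.85, -2.15 and -2.54. These genes have no synonym that tells a role, and they differ most at 52 h, where CG14421 was the only member at or below -1.

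CG12288, listed with the synonym RBM34, an RNA-binding protein, was at -0.52, -0.75, -1.24, -2.02 and -2.49. CG14270, also on the X chromosome but apart from the neighbours above, was at 0.11, -0.29, -0.60, -1.32 and -2.41, with its largest change in the last step. CG13983 was at 0.00, -0.42, -1.52, -1.62 and -2.11. Here most of the change fell between 64 and 76 h.

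CG11267, listed as Hsp10, the partner of the mitochondrial chaperonin Hsp60, was at 0.06, 0.00, -0.42, -1.23 and -2.09. It stayed near the level of 40 h until 64 h. CG4679 was at -0.38, -0.79, -0.98, -1.28 and -2.06, and CG11076, on the small chromosome 4, was at -0.23, -0.75, -0.77, -1.34 and -2.05. Both were already below 0 at 52 h and had their largest step at the end.

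The 9 members with synonyms of ribosome assembly were below 0 together at every larval age. Their ratios ranged from -0.54 to -0.30 at 52 h (median -0.46), from -1.24 to -0.78 at 76 h (median -1.19) and from -2.49 to -1.34 at 100 h (median -1.43). The grouping by synonym was made after the values had been seen, so it is a description only. By 76 h these members had reached a median of 62.9% of their value at 100 h. Of the 9, 6 (66.7%) had their largest step between 64 and 76 h, against 21.5% of all genes.

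Of factors for the large ribosomal subunit, CG5033 (BOP1, known from mouse, with dWDR36 as a further synonym) was at -0.46, -0.75, -1.20, -1.52 and -1.92 from 52 to 100 h. CG8939 (dSpb1, named after a ribosomal RNA methyltransferase of yeast) was at -0.39, -0.64, -1.02, -1.37 and -1.87. CG1542 (EBP2, a ribosomal RNA processing factor in yeast) was at -0.36, -0.56, -1.21, -1.36 and -1.43. The last step was -0.40 in CG5033 and -0.50 in CG8939, while CG1542 was nearly level from 88 h on, with a last step of -0.07.

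Of factors for the small subunit, CG7728 (BMS1, a GTPase in yeast) was at -0.48, -0.64, -1.20, -1.32 and -1.34. CG2972 (NOB1, the nuclease that makes the end of the small subunit RNA in yeast) was at -0.30, -0.38, -0.86, -0.98 and -1.36. CG9300 (NOL11, a processing factor in human cells) was at -0.47, -0.63, -0.78, -1.27 and -1.41. All were below 0 by 52 h, and the last step of CG7728 was only -0.02.

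CG2691 (RRP12, which in yeast takes part in the export of both subunits) was at -0.54, -0.69, -1.19, -1.54 and -1.73, the lowest of the group at 52 h. CG6937 (NIFK, a nucleolar protein that binds Ki-67 in human cells) was at -0.40, -0.68, -1.06, -1.28 and -1.42. A further 3 members carry synonyms of the DmRH series of RNA helicases: CG32344 (DmRH20) at -1.48, CG8611 (DmRH11) at -1.35 and CG5800 (DmRH14) at -1.20 at 100 h. Their medians at 52 and 76 h were -0.27 and -0.81, between those of the ribosome assembly and the mitochondrial members.

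The 8 members with mitochondrial synonyms were closer to 0 at the early ages. At 52 h they ranged from -0.56 to 0.10 with a median of -0.05, and 7 of them were above the highest ribosome assembly member. The exception was CG31126 (BolA1, in human cells a factor of iron-sulfur cluster assembly in mitochondria), at -0.56, -0.75, -0.80, -1.01 and -1.51 from 52 to 100 h. At 76 h the medians were -0.55 for the mitochondrial and -1.19 for the ribosome assembly members, and at 100 h they were -1.51 and -1.43. The mitochondrial members had reached a median of 44.0% of their value at 100 h by 76 h. In the 54 members with no synonym used here that median was 43.8%. None of the 8 had its largest step between 64 and 76 h, against 21.5% of all genes. That share was only 5.56% in those 54 members and 8.46% in the 130 genes with other symbols that met the rule. The course is thus not particular to the mitochondrial members. The difference between both groups of members was not tested. Both groups rest on listed synonyms alone, and the role of each gene in the fly was not checked.

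Listed as mRpS4, a name in the form used for small mitochondrial ribosomal subunit proteins, CG4866 was at -0.03, -0.09, -0.70, -1.44 and -1.56. Only this synonym put it in the mitochondrial group, so its place there is uncertain. All counts, medians and ranges of that group include it. CG6094 (dICT1, in human cells a release factor of the mitochondrial ribosome) was at -0.07, -0.26, -0.35, -0.87 and -1.51. CG10214 (Rex2, in human cells an exonuclease of short RNAs) was at -0.22, -0.64, -0.90, -1.31 and -1.59. The first had its largest step between 76 and 88 h, the second in the last step, and CG10214 in the first.

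The remaining 3 are named after human assembly factors of respiratory chain complexes. CG13392 (dTMEM126B, of complex I) was at 0.00, -0.22, -0.31, -1.17 and -1.42. CG4627 (dTMEM186, of complex I) was at -0.07, -0.34, -0.60, -0.87 and -1.39. CG7506 (dTMEM70, of the ATP synthase) was at 0.10, -0.19, -0.50, -0.86 and -1.03, the highest member of all at 100 h. Of 2 members with other synonyms, CG17219 (METTL18, a histidine methyltransferase in human cells) was at -1.30 and CG9667 (ISY1, a splicing factor) at -1.14 at 100 h.

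Of the 130 named genes that met the same rule, 30 were mitochondrial ribosomal protein genes, out of 52 measured (57.7%, against 2.31% of all genes), a family picked out after the values had been seen. By 76 h these 30 had reached a median of 35.5% of their value at 100 h, lower than the 62.9% of the ribosome assembly members and the 44.0% of the mitochondrial members. CCT genes, subunits of the cytosolic chaperonin, numbered 6 of 8 measured. By distance over all 12 groups, the named genes most like the member median were mRpL1 (0.27), mRpS18B (0.30), rswl (0.31), mRpL38 (0.35) and eIF6 (0.38), a factor of large ribosomal subunit assembly. At 100 h mRpL1 was at -1.51 and eIF6 at -1.48, against -1.48 for the member median.

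The larval setting at 100 h is given by 5 lists of other genes. The ribosome assembly list (10 of 16 genes measured) had a median of -1.52 and 6 genes at or below -1, among them Fib (-2.58), the ribosomal RNA methyltransferase fibrillarin, and Nop56 (-2.90), its partner, while Non1 was at 0.54. In the DNA replication list (16 of 23 measured) the median was -0.39, with no gene at or below -1. The mitosis list (11 of 18) had a median of 0.22, also with none. Digestive enzymes (36 of 39) had a median of 0.60, with none at or below -1 and 11 at or above 1. Peritrophic matrix and chitin genes (15 of 20) had a median of -0.08, with 2 at or below -1 and 3 at or above 1. Over all genes 6.77% were at or below -1 and 4.97% at or above 1.

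Markers of tissues did not all keep level over the same ages. At 100 h the fat body markers Lsp2 and Fbp2 (2 of 5 measured) were at 8.26 and 7.51, and the salivary gland glue genes Sgs1 and Sgs5 (2 of 6) at 4.18 and 3.00. Neuron markers (2 of 5) lay between -0.25 and -0.19, muscle markers (4 of 5) between -0.20 and -0.01, blood cell markers (4 of 4) between 0.21 and 0.88, imaginal disc markers (4 of 6) between 0.07 and 0.69, midgut markers (5 of 5) between -0.13 and 3.71, and trachea and cuticle markers (2 of 6) between -1.94 and 0.00. The part of these differences in the ratios of the members was not tested.

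**Figure D2:**
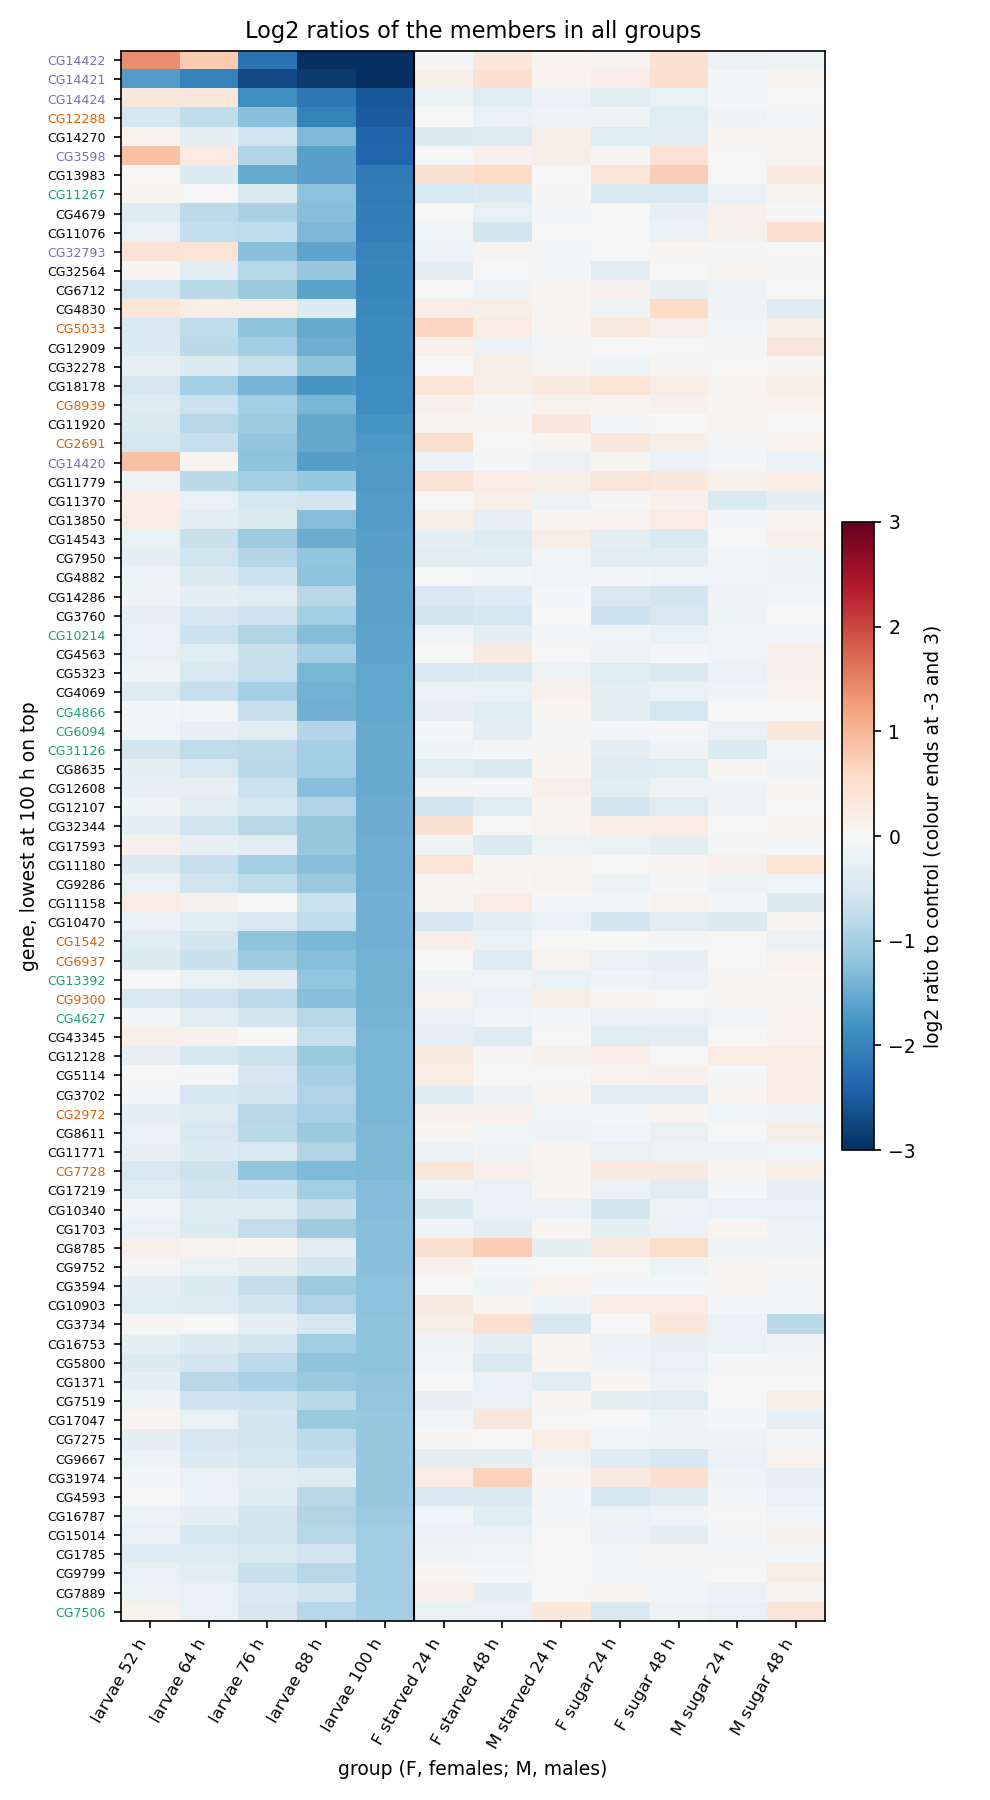
Log2 ratio to the control of each of the 82 members (rows, lowest at 100 h on top) in the 5 larval and 7 adult groups (columns), blue for lower and red for higher, with the colour ending at -3 and 3. Row names are orange for synonyms of ribosome assembly, green for mitochondrial synonyms and violet for the 6 neighbours on the X chromosome. The larval columns darken from left to right, and 549 of the 574 adult values lie within 0.5 of 0. The rule held the adult values between -1 and 1. All 7 lie within 0.5 of 0 in 65 of the 82 members, against 75.5% of all genes.

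The only members that lie close together in the genome are 6 on the X chromosome. In the gene order of the RefSeq annotation (Release 6 plus ISO1 MT), CG14424, CG32793, CG3598, CG14420, CG14421 and CG14422 follow each other among 7 protein-coding genes, interrupted by CG3592 alone. All 5 pairs of members within 5 genes of each other belong to this run. All 6 had their largest step between 64 and 76 h, against 21.5% of all genes. Their changes in that step ran from -2.99 (CG14422) to -0.69 (CG14421), with a median of -1.46. In the other 76 members the median of that step was -0.23, a difference that was not tested.

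CG3598 was at 0.89, 0.26, -0.91, -1.62 and -2.37 from 52 to 100 h, and CG14420 at 0.89, 0.06, -1.20, -1.65 and -1.71. As in CG14422 and CG14424, the ratio was above 0 until 64 h and below -0.9 from 76 h on. CG32793 was at 0.43, 0.40, -1.25, -1.58 and -2.0, but its 2 clones disagree. One was at 0.51, 0.46, -0.05, -0.11 and -0.14, and the other at 0.36, 0.35, -2.44, -3.06 and -3.85. One clone thus stayed near the 40 h level from 76 h on and the other was far below it. The annotation lists several older CG numbers for this gene.

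The neighbours outside the set were mixed. CG14423, next after CG14422, was at -0.50, -0.37, -3.38, -3.49 and -3.88, lower than any member at 100 h, and missed the rule only because it was higher at 64 h than at 52 h. CG14417, some genes away to the other side, was at 1.07, 0.14, -0.93, -1.55 and -1.28. CG3592, inside the run, was at -0.13, 0.05, 0.19, -0.44 and -0.44, and CG17959, beyond CG14423, was at -0.34 at 100 h. A low ratio therefore is not shared by every gene of the stretch. The whole run lies within the span of the gene kirre, which was not measured. Whether similar sequences bind each other's RNA was not tested.

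**Figure D3:**
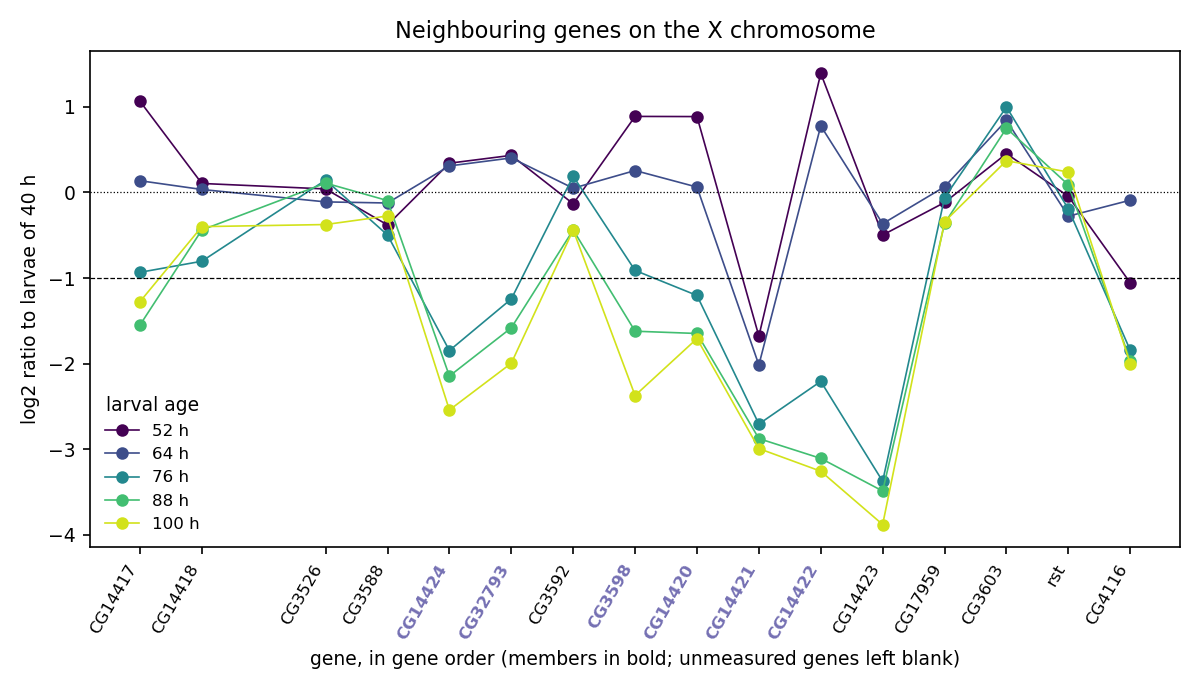
Log2 ratio to larvae of 40 h (vertical axis) of measured genes around the run on the X chromosome, placed in gene order, with 1 line per larval age and members in bold violet. The dashed line marks -1, the limit of the rule at 100 h. From CG14424 to CG14423 the lines of 76, 88 and 100 h lie below -0.9 except at CG3592, where the 3 lie between -0.44 and 0.19.

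Across the chromosomes, 19 members (23.2%) lie on the X, against 16.5% of the genes that have a value in every group and a place in this annotation. Without the run, 13 of the other 76 members (17.1%) lie on the X. On the arms 2L, 2R, 3L and 3R there were 11, 19, 14 and 18 members, or 13.4%, 23.2%, 17.1% and 22.0%. Of the measured genes, 18.6%, 19.7%, 19.2% and 25.5% lie on these arms. CG11076 was the only member on chromosome 4 (1.22%, against 0.526% of the measured genes). The spans of 47 members overlap that of another protein-coding gene in the annotation. The same share over all genes was not counted, so nothing is read from this number. As no strand is recorded for the values, the values of such overlapping genes are uncertain. CG11076 overlaps ATPsynbeta, an ATP synthase subunit, which was at -1.68 at 100 h. For CG12288 the overlapping gene is tweek, at 0.53, so ATPsynbeta and tweek differed in direction.

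The step with the largest change differed among the members. It was the step from 88 to 100 h in 33, from 76 to 88 h in 24, from 64 to 76 h in 16 and from 52 to 64 h in 9. Among the 130 named genes that met the rule the numbers were 58, 47, 11 and 14, or 44.6%, 36.2%, 8.46% and 10.8%, against 40.2%, 29.3%, 19.5% and 11.0% of the members. For the largest fall of all genes, the shares in the same order were 27.9%, 27.1%, 21.5% and 23.4%. Without the run on the X chromosome, 13.2% of the other 76 members had their largest step from 64 to 76 h. The largest change of the member median was -0.43, from 76 to 88 h.

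In the last step CG4830 differed by -1.53, the largest change of any member outside the X run, and was at 0.35, 0.22, 0.18, -0.40 and -1.93 from 52 to 100 h. The last step of CG11370 was -1.14, to -1.68, and that of CG14270 was -1.09. CG8785 was at 0.15, 0.11, 0.05, -0.32 and -1.27. These genes were near or above the level of 40 h until 76 h, except CG11370 (-0.52) and CG14270 (-0.60). CG11158 and CG43345 had the same late course, near 0 at 76 h and at -1.44 and -1.38 at 100 h.

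The other members with their largest change in the last step were CG11267, CG32564, CG4679, CG14286, CG31974, CG11076, CG9752, CG32278, CG10470, CG3734, CG6094, CG4563, CG12107, CG10340, CG3760, CG4627, CG8939, CG31126, CG7889, CG1785, CG12909, CG8635, CG7950, CG11771, CG9667, CG7275 and CG32344. Their changes in that step ran from -0.86 in CG11267 to -0.35 in CG32344. Of these, CG32564 (-1.97), CG12909 (-1.91) and CG32278 (-1.90) were the lowest at 100 h after CG11267, CG4679 and CG11076.

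Of the 24 members with their largest step between 76 and 88 h, the lowest values of that step were -0.86 in CG13392, -0.85 in CG13850 and -0.79 in CG17593. CG13850 was at 0.23, -0.34, -0.43, -1.29 and -1.68 from 52 to 100 h, and CG17593 at 0.12, -0.24, -0.33, -1.13 and -1.47. Both were above 0 at 52 h. The same step was the largest in CG12288, CG4866, CG5323, CG12608, CG4882, CG17047, CG9300, CG5114, CG6712, CG16753, CG11920, CG12128, CG4593, CG5800, CG4069, CG17219, CG3594, CG7506, CG16787, CG1703 and CG10903, down to -0.33 in CG10903. CG6712 (-1.96) and CG11920 (-1.78) were the lowest of these at 100 h after CG12288.

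Apart from the run, the step from 64 to 76 h was the largest in CG13983 (-1.10), CG1542 (-0.66), CG7728 (-0.55), CG2691 (-0.50), CG2972 (-0.47), CG5033 (-0.45), CG6937 (-0.38), CG9799 (-0.35), CG11180 (-0.33) and CG8611 (-0.33). Of these 10, 6 carry synonyms of ribosome assembly. The first step was the largest in CG11779 (-0.65), CG1371 (-0.57), CG18178 (-0.50), CG7519 (-0.49), CG3702 (-0.47), CG14543 (-0.43), CG10214 (-0.42), CG9286 (-0.36) and CG15014 (-0.33). CG18178 was at -0.51, -1.01, -1.39, -1.73 and -1.87, and it and CG14421 were the 2 members at or below -1 at 64 h.

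**Figure D4:**
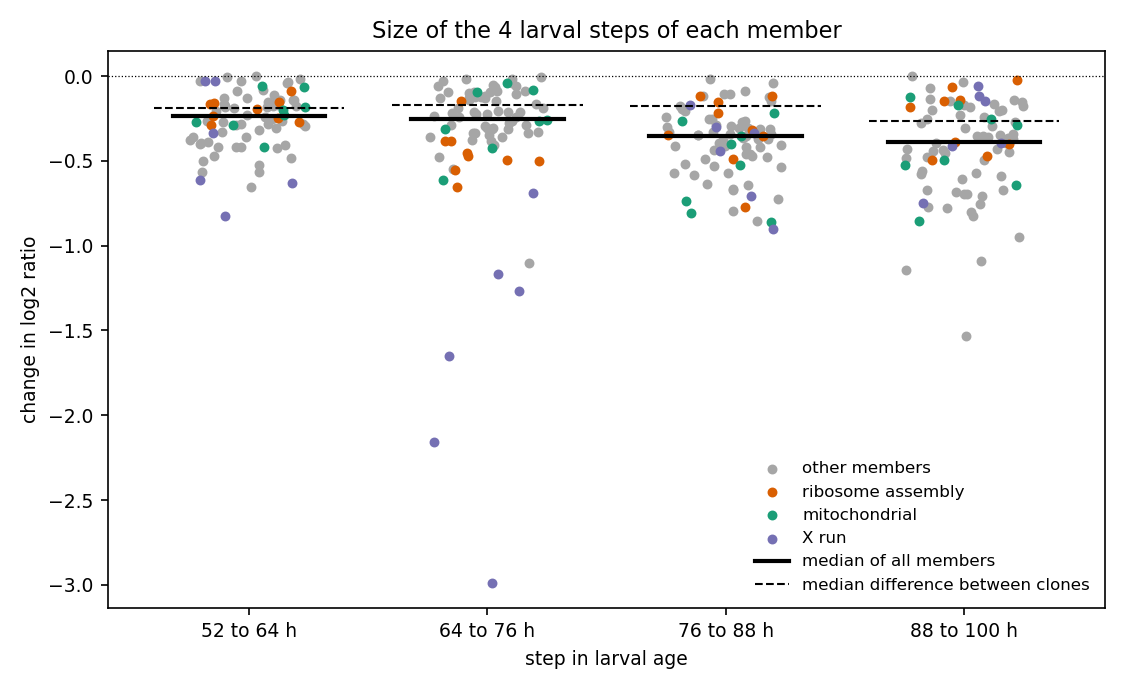
Change in log2 ratio (vertical axis) of each member in each of the 4 larval steps, 1 point per member, spread sideways at random. Thick black lines are medians over the 82 members (-0.24, -0.25, -0.36 and -0.39 from the first to the last step), and dashed lines are the median difference between 2 clones of a gene in the same step, drawn below 0. Many points lie between the dashed line and 0, and the 5 lowest points of the second step are 5 violet ones.

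Many single steps were no larger than the difference between clones. The median difference between 2 clones in the change of a step was 0.19, 0.17, 0.18 and 0.27 from the first step to the last. The members' change was past that median in 48, 53, 69 and 54 of the 82. Among all 9158 genes with a value in every group, such a fall was seen in 1796, 1909, 2508 and 1964. In all 4 steps it was seen in 14 members, a count not made for all genes. The rule asked for a lower value at every step, so nothing is read from the difference. A change of at least 0.1 in every step was seen in 45 members, against 1.42% of all genes. The smallest steps, such as -0.0019 in CG1785 from 52 to 64 h, cannot be told from no change. From 52 to 100 h as a whole, 66 members were lower by 1 or more on the log2 scale, against 5.23% of all genes, again a measure from the contrast of the rule.

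At 52 h, 20 members were above 0, of which 5 belong to the X run, and 62 were below. Over all genes 55.7% were below 0 at that age. Members below 0 numbered 71 at 64 h, 80 at 76 h and all 82 at 88 and 100 h, against 49.3%, 47%, 54.1% and 51.8% of all genes. The lowest after CG14421 were CG31126 (-0.56) and CG2691 (-0.54). Just inside the limit at 100 h were CG9799 (-1.04), CG7889 (-1.03) and CG7506 (-1.03). Just outside, with the other criteria met, were CG14817 (-0.99), CG3419 (-0.98) and CG9107 (-0.98).

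Besides CG32793, 3 members have more than 1 clone. The clones of CG11779 ended at -1.97 and -1.44 and both met the criteria. Those of CG5114 were at -1.84 and -0.89 at 100 h, in the same direction but with 1 above the limit. In CG31974 they were at -1.99 and -0.28, a gap wider than the 95th percentile of 1.09. Its gene also overlaps ND-15, a subunit of complex I, which was at -1.06 at 100 h. The other 78 members rest on 1 clone each.

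In adults the members stayed near the yeast-fed control, and the rule allowed no more than 2-fold. Their medians were -0.03 and -0.12 in females starved for 24 and 48 h, 0.02 in males starved for 24 h, -0.09 and -0.14 in females fed sugar for 24 and 48 h, and -0.05 and 0.02 in males on sugar for 24 and 48 h. Members below 0 numbered 45 and 56 in females starved for 24 and 48 h, 36 in males starved for 24 h, 53 and 53 in females fed sugar for 24 and 48 h, and 56 and 36 in males on sugar for 24 and 48 h. In the same order, 51.6%, 47.8%, 48.6%, 51.3%, 53.1%, 48.7% and 45.4% of all genes were below 0. All 7 values lay within 0.5 of 0 in 65 of the 82 members, against 75.5% of all genes. The widest adult values were -0.81 in CG3734 in males after 48 h of sugar, 0.77 in CG8785 in females starved for 48 h and 0.75 in CG13983 in females after 48 h of sugar. In CG3734, the female groups lay at 0.18, 0.51, 0.01 and 0.34 and the male groups at -0.50, -0.17 and -0.81.

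In the female groups, members with mitochondrial synonyms lay lower than those with ribosome assembly synonyms, a difference that was not tested. All 8 mitochondrial members were below 0 in all 4 female groups, with medians of -0.17 and -0.23 after 24 and 48 h of starvation and -0.25 and -0.20 after 24 and 48 h of sugar. Of the 9 ribosome assembly members 1 was below 0 in all 4, and their medians were 0.14, -0.03, 0.05 and 0.06 in the same order. Below 0 in all 4 were 36 of the 82 members (43.9%), 38 of the 52 measured mitochondrial ribosomal protein genes (73.1%) and 24.4% of all genes. The 4 female groups share the kind of control, and whether they share its RNA is not given, so they are not 4 independent observations.

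Tissue markers also differed from the yeast-fed control in these groups. In females starved for 24 and 48 h and on sugar for 24 and 48 h, the 4 measured muscle markers had medians of 0.50, 1.11, 0.55 and 1.13, and the 2 neuron markers 0.47, 0.76, 0.47 and 0.79. In the 3 male groups the medians lay between -0.04 and 0.06 for muscle and between 0.00 and 0.16 for neurons. Midgut markers had medians from -0.84 to -0.33 in the female groups and from -2.47 to -0.95 in the male groups. Of the 2 fat body markers, the lower lay between -7.25 and -4.59 over all adult groups, and the other between -0.21 and 0.07. Blood cell, salivary gland, imaginal disc and trachea and cuticle markers had medians between -0.23 and 0.44 over all adult groups. Their part in the ratios of the members was not tested.

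In females starved for 24 h the ribosome assembly members ranged from -0.01 to 0.65, with CG5033 (0.65), CG2691 (0.54) and CG7728 (0.36) highest, and the mitochondrial members from -0.48 to -0.07, with CG11267 (-0.48) lowest. The ranges did not overlap there, but they did in females starved for 48 h (-0.40 to 0.26 and -0.42 to -0.04). The median difference between clones was 0.12 in females starved for 24 h, so a single gene near -0.1 or 0.1 cannot be told from 0. In males, 1 of the 8 mitochondrial and 2 of the 9 ribosome assembly members were below 0 in all 3 groups, against 29 of the 52 mitochondrial ribosomal protein genes (55.8%) and 23.7% of all genes.

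Of the members with no synonym used here, CG12107 (-0.60), CG3760 (-0.59), CG10470 (-0.49) and CG14286 (-0.49) were the lowest in females starved for 24 h, and CG13983 (0.45), CG8785 (0.46) and CG11779 (0.43) were among the highest. In the same order, the first 4 were at -0.58, -0.65, -0.60 and -0.49 in females after 24 h of sugar, and at 0.05, 0.00, -0.19 and -0.05 in starved males. The members of the X run lay between -0.37 and 0.51 in all adult groups.

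The adult values of the members described first are given in the order of females starved for 24 and 48 h, males starved for 24 h, females fed sugar for 24 and 48 h and males fed sugar for 24 and 48 h. CG14422 was at -0.05, 0.31, 0.07, 0.12, 0.45, -0.18 and -0.16. CG14421 was at 0.17, 0.51, 0.11, 0.19, 0.50, -0.03 and 0.10, highest in females after 48 h of either diet. CG14424 was at -0.20, -0.37, -0.17, -0.37, -0.23, -0.04 and -0.02, below 0 in every group. In the X run the signs in adults thus differed between neighbours. CG32793 was at -0.11, 0.08, -0.04, 0.02, 0.05, -0.05 and -0.01, and CG3598 was at 0.01, 0.13, 0.16, 0.03, 0.44, 0.00 and 0.08.

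CG12288 was at 0.01, -0.19, -0.13, -0.14, -0.37, -0.09 and -0.06. CG2691 was at 0.54, 0.01, 0.08, 0.31, 0.17, -0.05 and 0.11, above 0 in all female groups. CG11267 was at -0.48, -0.42, 0.04, -0.45, -0.48, -0.20 and 0.10. CG31126 was at -0.13, -0.04, 0.03, -0.29, -0.14, -0.42 and -0.04. Both of the mitochondrial members named here lay below 0 in every female group.

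Of the members with no synonym, CG14270 was at -0.42, -0.38, 0.19, -0.37, -0.32, 0.07 and 0.07, with females below 0 and males above. CG13983 was at 0.45, 0.56, 0.01, 0.39, 0.75, 0.01 and 0.29, above 0 in every group. CG4679 was at 0.01, -0.23, -0.05, 0.01, -0.25, 0.13 and -0.06, and CG11076 was at -0.09, -0.56, -0.01, 0.00, -0.18, 0.12 and 0.52. These stayed closer to 0, except CG11076 in females starved for 48 h and in males after 48 h of sugar.

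Among members with more than 1 clone, CG11779 was at 0.43, 0.23, 0.17, 0.36, 0.31, 0.16 and 0.22, above 0 in every group. CG31974 was at 0.25, 0.68, 0.06, 0.27, 0.48, -0.10 and -0.24, higher in females than in males. CG5114 was at 0.23, 0.02, 0.00, 0.09, 0.14, -0.05 and 0.21. From 52 to 100 h the medians of clones were -0.16, -0.82, -1.03, -1.14 and -1.70 in CG11779, -0.04, -0.22, -0.34, -0.38 and -1.13 in CG31974 and -0.01, -0.03, -0.51, -1.0 and -1.37 in CG5114.

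Next to the limit at 100 h, CG9799 lay between -0.06 and 0.17 in adults, CG7889 between -0.27 and 0.16 and CG7506 between -0.47 and 0.38. Just outside, CG14817 lay between -0.44 and -0.09, CG3419 between -0.80 and 0.06 and CG9107 between -0.11 and 0.38. Genes on both sides of the limit were thus within the adult bounds.

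**Figure D5:**
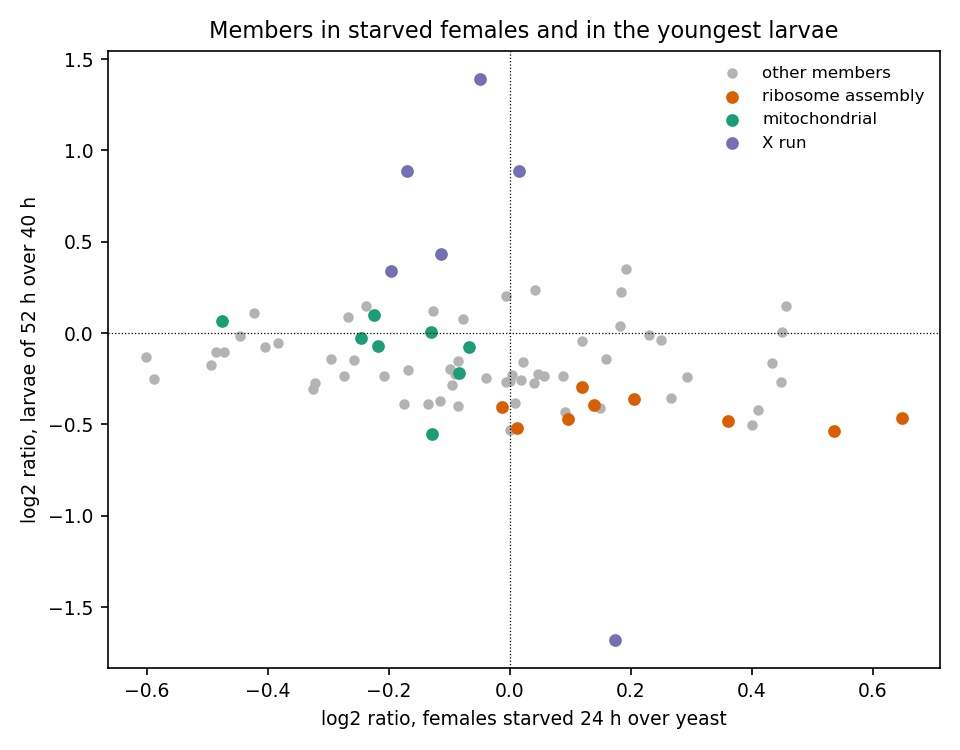
Log2 ratio of larvae of 52 h to larvae of 40 h (vertical axis) against that of females starved for 24 h to yeast-fed females (horizontal axis), 1 point per member, with colours as in the plot of larval profiles. Orange points (ribosome assembly) lie between -0.01 and 0.65 on the horizontal axis and between -0.54 and -0.30 on the vertical one. Green points (mitochondrial) lie between -0.48 and -0.07 on the horizontal axis, and all but 1 of them lie above the orange ones.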

How the data were processed

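The authors' deposited values are log2 ratios of 2 dye channels on 63 arrays. Per the labels' descriptions, each array was scanned 3 times, and both spots of a clone and all hybridisations of a group were merged into 1 value. In the deposited table, all arrays of each of the 12 groups were identical, as were both spots of each of 12094 clones. Base 2 was read from the numbers themselves, since 99.996% of them give a ratio with 6 decimals in that base. The sources used here name no background correction, centring or software. Each group holds 4 to 6 arrays, and their number limits the precision, which the merged values do not show.

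Clones were named through the platform annotation, updated by gene identifier (9814), accession (87) or kept as annotated (247), and 1946 were left unnamed. RefSeq Release 6 plus ISO1 MT gave symbols, synonyms and gene order. Clones of 1 gene were combined by their median, with no filter on low values. None of the 5 CG-numbered genes that the rule leaves out by name meets its other criteria. The members, the lists of other genes and the tissue markers were chosen with earlier results of these data known. By the rule for named genes, every member may be named. Fuller values are given for the 10 lowest at 100 h, the 3 lowest at 52 h, the 3 with the largest step, the 3 on each side of the limit, those with more than 1 clone and those with a described role or neighbour, and the 5 named genes most like the set are those nearest to the member median. Protein and promoter features were planned and not made, as no sequence was used here. The planned test for single arrays could not be run, so no p-value is given. The rule was tested on simulated data. Python 3.11.15, pandas 2.3.3, NumPy 2.4.6 and matplotlib 3.10.9 were used.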

Additional observations from a re-analysis of the deposited data

How the results depend on the processing

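The member count of 82 was 32 with a limit of 3-fold at 100 h, 45 with a change of at least 0.1 in every step and 133 with the value at 52 h left free, as follows from stricter or looser criteria. It was 79 when every clone had to meet the rule (CG32793, CG31974 and CG5114 dropped out), 73 with adult values within 1.5-fold, 117 with a limit of 1.5-fold, and 84 with each group centred on its median, of which 80 were shared. Means over clones, the symbols of the platform annotation and no adult criterion gave the same 82 genes. The median at 100 h was -1.44 to -1.54 over its alternatives, and the largest change of the member median was from 76 to 88 h with centring and without the X run, an alternative chosen after seeing the data. No paired analysis was possible because all arrays of a group hold 1 merged value, and for the same reason no replicate could be left out. Brightness over background was not used, so dim spots cannot be told from bright ones.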

Other observations

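Of the 1946 clones left without a single gene symbol, 1933 had a value in every group, and 16 of them (0.828%) met the larval and adult criteria, against 2.31% of the genes. These clones are not named here.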
